A study of Danio rerio with 6 samples.

Results

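The genes described here are dusp6, etv4, etv5a and etv5b, 4 of the 27726 genes listed for zebrafish (Danio rerio) sox10:dsRed-positive cells. They were taken by Ensembl identifier as transcriptional readouts of FGF-RAS-ERK signalling, by a rule that names no measured value but was proposed with earlier results of these data known: ENSDARG00000070914 is dusp6, ENSDARG00000018303 is etv4, ENSDARG00000069763 is etv5a and ENSDARG00000044511 is etv5b. All 4 passed the filter on low values, as did 20463 genes in all. RNA was sequenced from 3 wild-type libraries and 3 libraries of Shoc2-/- larvae, which carried a CRISPR/Cas9 mutation of shoc2 and whose titles bear the code D22. Every library came from larvae at 6 days post fertilization, and in every one the cells had been sorted by flow cytometry for the red fluorescent reporter sox10:dsRed. The labels do not say how many larvae were pooled per library or whether the libraries came from separate clutches, so p-values measure the spread between these libraries, which may be technical.

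When a receptor such as an FGF receptor activates RAS, the RAF, MEK and ERK kinases are switched on in turn, and ERK enters the nucleus. Shoc2 is a scaffold protein that, with MRAS and the phosphatase PP1, removes an inhibitory phosphate from RAF. dusp6 encodes a phosphatase that takes the activating phosphates off ERK, so that the pathway induces its own brake. etv4, etv5a and etv5b encode ETS-family transcription factors of the PEA3 group, which are induced by FGF signalling in the zebrafish embryo and carry its output to further genes. etv5a and etv5b are the zebrafish counterparts of the single ETV5 gene of mammals, and the counting options that decide how reads shared by such a pair are assigned are not given in the sources used here.

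Reads assigned to genes numbered from 20088591 to 21802683 per library. sox10, the gene whose regulatory sequence drives the reporter, was read in every library, at 8573 to 30212 normalized counts (read counts divided by 1 factor per library). The summed level of 5 epithelial and keratin markers (epcam, cdh1, krt4, krt5 and krt8) was 100086 to 187705 normalized counts in wild type and 91260 to 110813 in mutants. Transcripts of these epithelial and keratin markers were thus read beside sox10 in all libraries, and which cells held them was not tested. Named after the values were seen, krt5 had a log2 fold change of -1.03 (limma adjusted p = 0.787) and krt4 of -0.91. epcam was at -0.30, cdh1 at 0.014 and krt8 at 0.0025, and each of the 5 overlapped between genotypes. The summed level of 2 muscle markers, ckma and ckmb, was 1720 to 10712 normalized counts in wild type and 2760 to 22068 in mutants. It was highest in mutant replicate 1. These 2 genes, also named after the values were seen, had log2 fold changes of 1.35 and 1.30 and overlapped between genotypes. Of 11 tested markers of the sox10 lineage, 0 passed the adjusted threshold in limma. An unadjusted p under 0.05 was found for 1 of them, beside 5.8% of all tested genes. It was tfap2e (log2 fold change 0.75, limma adjusted p = 0.336). The next smallest p-value among markers with a higher mean in mutants was that of tyr (log2 fold change 0.48, limma adjusted p = 0.874). Among those with a lower mean the smallest were those of ltk (-0.25) and foxd3 (-0.51). Of the 11, the mean was higher in mutants for 7 and lower for 4. Of 16 tested markers of other cell types, 0 passed and 4 had an unadjusted p under 0.05, beside the same 5.8%. Among lower genes the smallest p-values were those of b2m (log2 fold change -2.52, limma adjusted p = 0.0775) and cd74a (-4.12). Both are antigen presentation genes, and b2m does not mark 1 cell type. The leukocyte markers ptprc, coro1a and lcp1, named after the values were seen, were at -0.24, -0.43 and -0.40. Each of them overlapped between genotypes. Among higher genes they were those of tfa (0.76) and fabp10a (1.02). In bulk libraries of this kind, fewer cells of a type and less RNA per cell cannot be told apart. The transcript of shoc2 itself averaged 1078 ± 118 normalized counts in wild-type libraries against 772 ± 88.5 in mutant libraries (SD, n = 3 each). The groups did not overlap, as for 10.6% of all tested genes. In limma the log2 fold change was -0.48 (SE 0.148, Benjamini-Hochberg adjusted p = 0.636). Where the reads lie relative to the mutation is not given in the sources used here, so this level does not test the loss of the protein.

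None of the 4 genes differed between genotypes beyond the spread of the libraries. Of the 4, 0 had an adjusted p under 0.05 in limma, beside 0.00489% of all tested genes, and 0 had an unadjusted p under 0.05, beside 5.8% of all tested genes. The wild-type and mutant values overlapped for all 4 genes, while 10.6% of tested genes had values without overlap. The mean was higher in mutants for 2 genes, dusp6 and etv5a, and lower for 2, etv4 and etv5b. The median log2 fold change over all tested genes was 0.0078.

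The phosphatase gene dusp6 had 6342, 5364 and 4568 normalized counts in wild-type replicates 1, 2 and 3, and 4756, 5631 and 5872 in mutant replicates 1, 2 and 3. Wild type held both the highest and the lowest library, and the mutant values lay between them. The means were 5424 ± 889 for wild type and 5420 ± 587 for mutants (SD, n = 3 each). In limma the log2 fold change was 0.0059 (SE 0.149, adjusted p = 0.999). Its 95% interval runs from a mutant level of 0.794 times to 1.27 times the wild-type level. The sign of so small a difference depended on scaling and on single libraries, and it turned negative with TMM scaling, at -0.0075. That interval describes the dusp6 estimate and is not a limit of detection. Larger differences also failed the adjusted threshold with 3 libraries per genotype, such as spry2 at 0.676 times the wild-type level (limma adjusted p = 0.318).

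The PEA3-group gene etv4 had 1681, 1388 and 1214 normalized counts in wild-type replicates 1 to 3, and 900.2, 1251 and 1320 in mutant replicates 1 to 3. The highest library was wild type and the lowest was mutant, but 2 mutant libraries lay above the lowest of the wild type. The wild-type mean was 1428 ± 236 and the mutant mean 1157 ± 225 (SD, n = 3 each). This was the widest difference among the 4 genes, with a log2 fold change of -0.31 (SE 0.184), a 95% interval from 0.604 to 1.08 times the wild-type level, and a limma adjusted p of 0.941. An absolute log2 fold change smaller than this was found for 71.1% of tested genes. Its size rested on the 2 extreme libraries, since it was -0.14 without mutant replicate 1 and -0.19 without wild-type replicate 1.

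etv5a had 2349, 1738 and 2415 normalized counts in wild-type replicates 1 to 3, and 2497, 2389 and 2413 in mutant replicates 1 to 3. All libraries lay close together except wild-type replicate 2, which was at 75.5% of the mean of the 6 libraries. The wild-type mean was 2167 ± 374 and the mutant mean 2433 ± 56.5 (SD, n = 3 each). The log2 fold change of 0.18 (SE 0.146) had a limma adjusted p of 0.96 and a 95% interval from 0.902 to 1.43 times the wild-type level. Without wild-type replicate 2 the log2 fold change was 0.03. That library also had the lowest sox10 level, 8573 normalized counts, and the highest summed epithelial and keratin level, 187705. Its summed muscle marker level, 10712, was the highest in wild type but below those of mutant replicates 1 (22068) and 2 (13862). The part of any of these in the etv5a value was not tested.

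etv5b had 2911, 2535 and 3010 normalized counts in wild-type replicates 1 to 3, and 2921, 2509 and 2558 in mutant replicates 1 to 3. It was the steadiest of the 4 genes, and in each genotype high and low libraries were mixed. The wild-type mean was 2819 ± 251 and the mutant mean 2663 ± 225 (SD, n = 3 each), and limma gave a log2 fold change of -0.08 (SE 0.124, adjusted p = 0.981). The 95% interval ran from 0.778 to 1.15 times the wild-type level. A smaller standard error was found for 4.75% of tested genes.

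**Figure D1:**
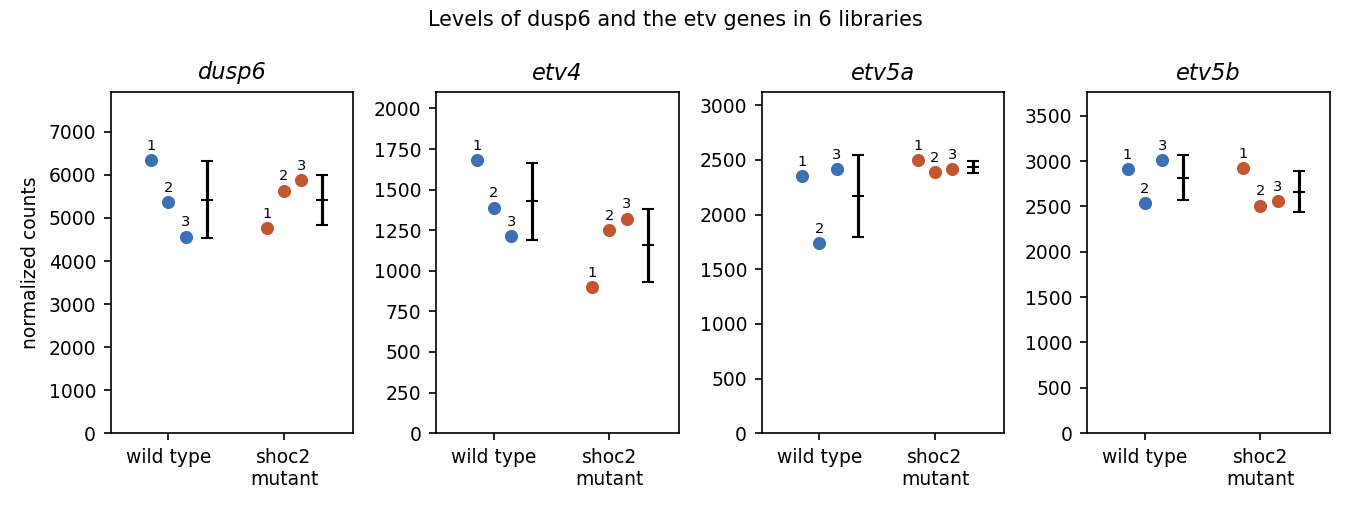
Normalized counts of dusp6, etv4, etv5a and etv5b in each library (points, numbered by replicate; blue, wild type; orange, shoc2 mutant), with the mean and SD of each group in black (n = 3); each panel has its own axis starting at 0. Wild-type and mutant points overlap in every panel, and wild-type replicate 2 of etv5a (1738) and mutant replicate 1 of etv4 (900.2) lie lowest in their panels.

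Counting error was a minor part of the spread over all 6 libraries. Within the mutant libraries alone this did not hold for etv5a, whose values (2433 ± 56.5, SD, n = 3) lay about as close as counting error allows. The fewest reads in any library were 4519 for dusp6, 931 for etv4, 1646 for etv5a and 2401 for etv5b, which corresponds to a counting error of at most 1.49%, 3.28%, 2.46% and 2.04% of the level. The coefficient of variation over the 6 libraries was 12.4% for dusp6, 19.7% for etv4, 12.2% for etv5a and 8.38% for etv5b. Genes whose mean lay within 1.5 times that of each member had a median coefficient between 11.9% and 12.2%. etv4 therefore varied more than the median gene of its level, etv5b less, and dusp6 and etv5a about as much; these are descriptions with no test. Precision was limited by differences between libraries rather than by depth.

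The 4 genes did not vary as a block across the libraries. dusp6 and etv4 were both highest in wild-type replicate 1, and their log2 levels had a Pearson correlation of 0.77 over the 6 libraries. etv5a and etv5b had a correlation of 0.46. Each of these correlations is a description over 6 libraries that share their normalization. The 4 other pairs had negative correlations, from -0.44 for dusp6 with etv5b to -0.09 for dusp6 with etv5a. Mutant replicate 1 had the lowest etv4 and the highest etv5a of the 6 libraries. Other libraries did not divide in this way. In wild-type replicate 1 all 4 genes were above their mean log2 levels. In mutant replicates 2 and 3, dusp6 and etv5a were above their means and etv5b was below its own.

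Within-library ratios were compared between genotypes because the library factor cancels in a ratio and the lengths of the 2 genes are the same in both genotypes. Of the 6 pairs, 2 had ratios that did not overlap between genotypes. As a background, the ratio of every other tested gene to a member was without overlap for 7.5% of genes with dusp6, 17.8% with etv4, 11% with etv5a and 9.08% with etv5b. The log2 ratio of dusp6 to etv4 was 1.92, 1.95 and 1.91 in wild-type replicates 1 to 3, and 2.40, 2.17 and 2.15 in mutant replicates 1 to 3. The wild-type ratios lay very close together although both genes differed between those libraries, and all mutant ratios were higher. The difference of the means was 0.32 on the log2 scale, with an exact two-sided permutation p of 0.1, which is the lowest this design can give, and 0.3 after Benjamini-Hochberg adjustment over the 6 pairs.

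The log2 ratio of etv5a to etv5b was -0.31, -0.54 and -0.32 in wild-type replicates 1 to 3, and -0.23, -0.07 and -0.08 in mutant replicates 1 to 3. The mutant libraries thus held more etv5a per etv5b than any wild-type library. The difference was 0.26 on the log2 scale (exact permutation p = 0.1, adjusted 0.3). For the other 4 pairs the ratios overlapped, with exact permutation p-values from 0.3 to 0.5. The largest difference among those, -0.49 for etv4 to etv5a, had SDs of 0.349 in wild type and 0.33 in mutants. No pair passed the threshold, and this design could not have passed it.

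**Figure D2:**
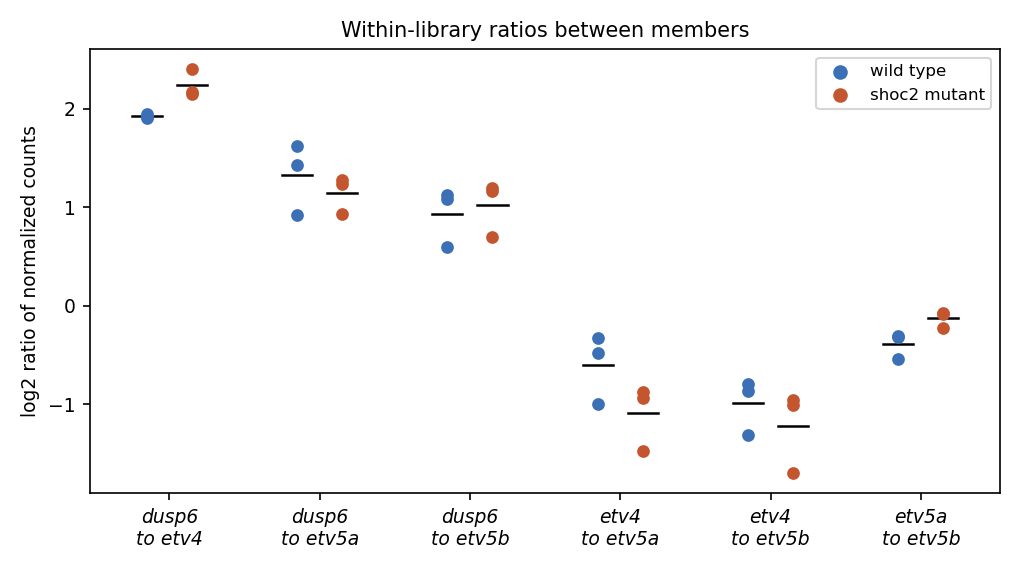
Log2 ratio of normalized counts between each pair of members within a library (points; blue, wild type; orange, shoc2 mutant; black bars, group means of 3 libraries). Wild-type and mutant points separate for dusp6 to etv4 (1.91 to 1.95 against 2.15 to 2.40) and for etv5a to etv5b, and overlap for the other pairs; heights of different pairs are not comparable, because levels were not scaled by gene length.

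The libraries differed in their sox10 level within each genotype, and the mean was higher in mutants. The means were 16325 ± 8730 in wild type and 24023 ± 8797 in mutants (SD, n = 3 each). The groups overlapped, with a log2 fold change of 0.62 (limma adjusted p = 0.952). sox10 had 25782, 8573 and 14620 normalized counts in wild-type replicates 1 to 3, and 13953, 30212 and 27904 in mutant replicates 1 to 3. The 3 libraries with the most sox10, which were wild-type replicate 1 and mutant replicates 2 and 3, were also the 3 with the most dusp6. This coincidence was noticed after the values were seen, and no test of it was made. etv4 was likewise highest in wild-type replicate 1, but in mutant replicate 2 it was below its mean over the 6 libraries. etv5a and etv5b did not follow the same order. Because mean sox10 differed between genotypes, a fit with sox10 as a covariate cannot fully separate sox10 level from genotype. With the log2 sox10 level of each library as a covariate, added after the data were seen, the log2 fold change of etv4 was -0.49 (limma adjusted p = 0.49, and from 0.49 to 1.00 over 15 alternatives) and that of dusp6 was -0.11 (adjusted p = 0.91).

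**Figure D3:**
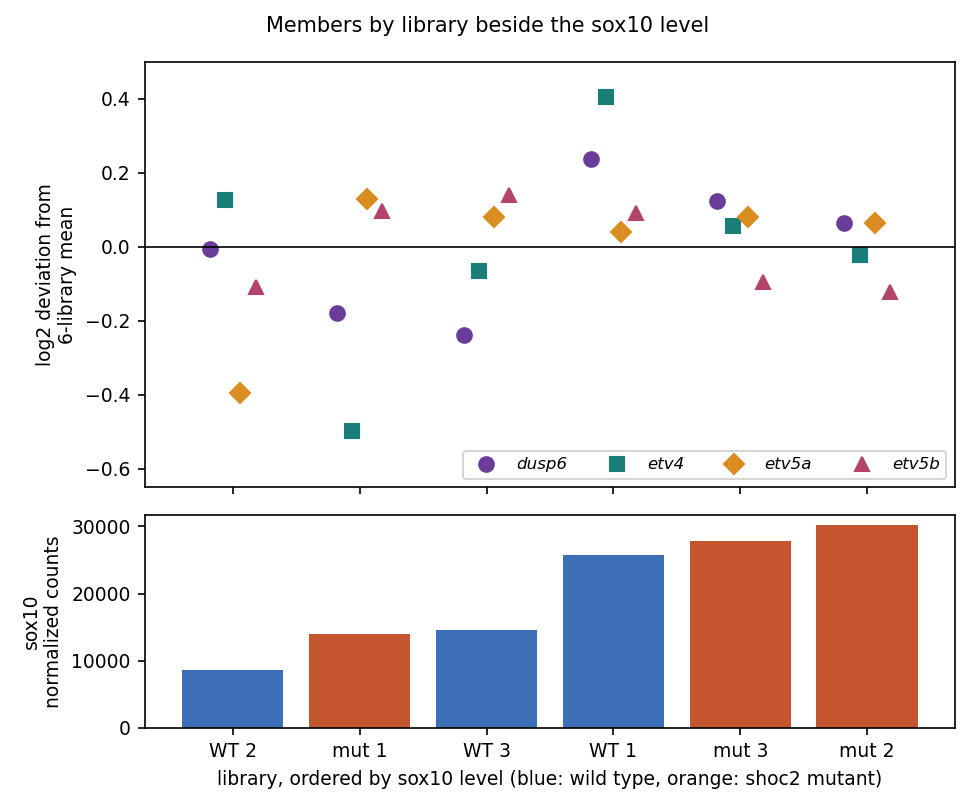
Upper panel, deviation of each member's log2 level from its mean over the 6 libraries; lower panel, sox10 normalized counts; libraries are ordered from left to right by sox10 level (blue bars, wild type; orange bars, shoc2 mutant). dusp6 is above its mean in the 3 libraries with the most sox10, etv4 is lowest in mutant replicate 1, and etv5a is lowest in wild-type replicate 2.

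The genes most alike in pattern were ranked by Pearson correlation with the mean standardized profile of the 4 members over the 6 libraries. Among the 16694 genes that averaged 50 normalized counts or more, ccdc40, tbcel and cpeb3 ranked highest, with correlations of 0.988, 0.988 and 0.984. Like the members' mean profile, each was highest in wild-type replicate 1 and lowest in wild-type replicate 2. The mean profile is not that of each member. Among the members, only etv5a was lowest in wild-type replicate 2, and only dusp6 and etv4 were highest in wild-type replicate 1. A correlation above 0.9 was reached by 202 genes, or 1.21% of those ranked.

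Other negative regulators of the pathway were listed to set the members beside them. Whether each is itself induced by ERK was not checked, and genes such as cbl and lztr1 are on the list. Of 21 symbols on this list, 16 were matched to 1 identifier each and all 16 were tested. The mean was lower in mutants for 11 and higher for 5, and the median log2 fold change was -0.21, against 0.0078 for all tested genes. None passed the adjusted threshold in limma. At an unadjusted p under 0.05 there were 3 lower and 1 higher, where 2.91% and 2.88% of all tested genes were called. Values without overlap were found for 4 genes lower and 1 higher in mutants, where the shares over all tested genes were 5.28% and 5.29%.

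The smallest p-values of that list belonged to spry2 and spry4. These are sprouty genes, whose products restrain receptor signalling upstream of ERK and which are themselves induced by FGF signalling. The other tested sprouty gene, spry1, named after the values were seen, had a log2 fold change of -0.17 (limma adjusted p = 0.964). Its groups overlapped. spry2 had 3266, 2954 and 2950 normalized counts in wild-type replicates 1 to 3, and 2081, 1934 and 2187 in mutant replicates 1 to 3. Every mutant library lay well under every wild-type library. Its log2 fold change was -0.56 (SE 0.114, limma adjusted p = 0.318), and the 95% interval from -0.82 to -0.31 did not include 0. spry4 had 3785, 3558 and 3809 normalized counts in wild-type replicates 1 to 3, and 2759, 2344 and 2619 in mutant replicates 1 to 3. It showed the same separation, with a log2 fold change of -0.53 (SE 0.114, limma adjusted p = 0.367). Over 15 alternatives the adjusted p ran from 0.246 to 0.869 for spry2 and from 0.312 to 0.952 for spry4.

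spry2 and spry4 were then set against dusp6 within each library, a comparison chosen after the values were seen and given without a test. The log2 ratio of spry2 to dusp6 was -0.96 to -0.63 in wild type and -1.54 to -1.19 in mutants. The log2 ratio of spry4 to dusp6 was -0.74 to -0.26 in wild type and -1.26 to -0.79 in mutants. Neither ratio overlapped between genotypes. Each mutant library thus held less spry2 and less spry4 per dusp6 transcript than each wild-type library. The ratio to dusp6 was without overlap for 7.5% of all other tested genes. Both spry2 and spry4 were already without overlap on their own, so the ratios add little. For spry4 the nearest values were -0.744 in wild type and -0.786 in mutants.

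dusp2, which encodes a nuclear MAP kinase phosphatase, was picked out with its values known. It had 8943, 8261 and 13956 normalized counts in wild-type replicates 1 to 3, and 5940, 5673 and 4261 in mutant replicates 1 to 3. The groups did not overlap, and limma gave a log2 fold change of -0.95 (SE 0.212, adjusted p = 0.367). dusp2 is known from leukocytes of mammals, and the summed level of 4 leukocyte markers (ptprc, coro1a, lcp1 and cd74a) was 2033 to 4240 normalized counts in wild type and 931 to 2162 in mutants, with none of the 4 at 0 in any library. Much of that difference came from cd74a, an antigen presentation gene, at 1084 ± 541 normalized counts in wild type and 68.5 ± 51.0 in mutants (SD, n = 3 each; limma adjusted p = 0.124). Without cd74a the sum was 1357 to 2613 in wild type and 874 to 2038 in mutants, and ptprc, coro1a and lcp1 each overlapped between genotypes. The part of these cells in the dusp2 value was not tested.

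Among genes of the list with a higher mean in mutants, the smallest p-value was that of fgfrl1b, an FGF receptor-like protein without a kinase domain, at 2120 ± 262 normalized counts in wild-type libraries and 2605 ± 84.1 in mutant libraries (SD, n = 3 each; limma adjusted p = 0.82). dusp7, which encodes a cytoplasmic ERK phosphatase of the same subfamily as dusp6, had 2616 ± 541 and 3062 ± 216 (SD, n = 3 each; limma adjusted p = 0.952). The log2 fold changes of the 4 members, from -0.31 to 0.18, lay within the range of this list, from -0.95 for dusp2 to 0.33 for cbl, a ubiquitin ligase gene named here for its place in that range (limma adjusted p = 0.952).

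**Figure D4:**
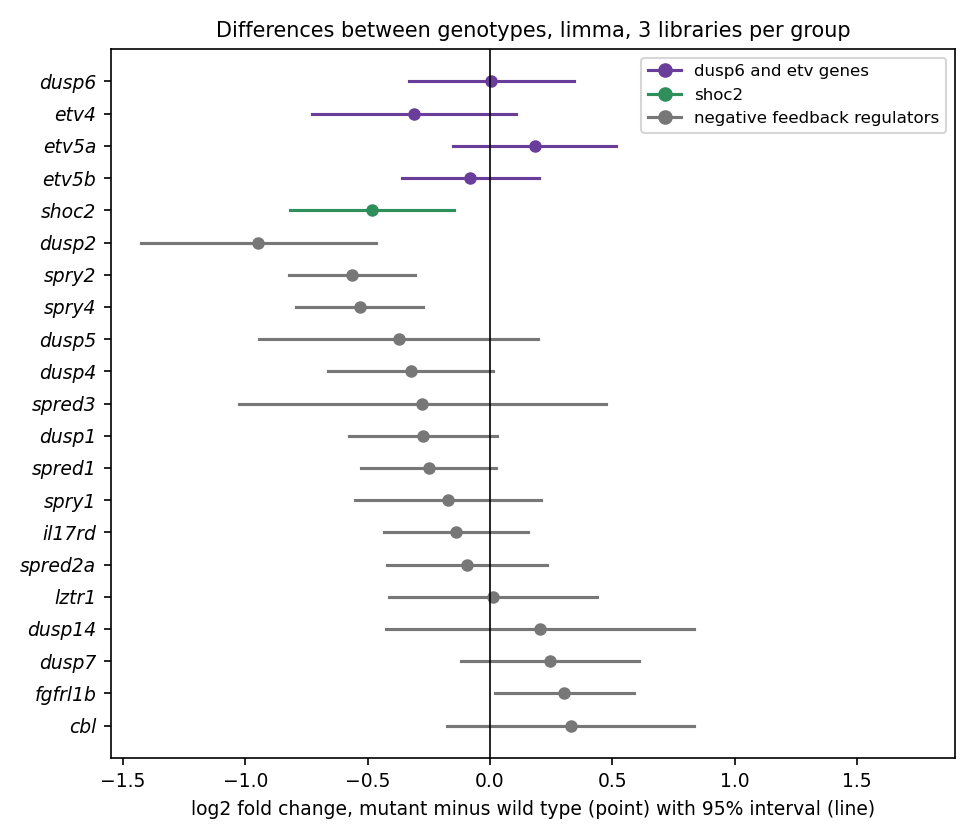
Log2 fold change (mutant minus wild type, points) with its 95% interval from limma (lines, 3 libraries per genotype). Shown are the 4 members (purple), shoc2 (green) and the 16 listed negative regulators (grey, labelled as negative feedback regulators). The intervals of the 4 members include 0, while those of dusp2, spry2, spry4 and shoc2 lie below 0 and that of fgfrl1b above it; none of the 21 genes passed the adjusted threshold.

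Upstream of the members, FGF ligands were matched for 10 of 18 symbols and 7 were tested. The symbols fgf8a and fgf10a were not matched, so those ligands were not examined. None passed the adjusted threshold. Beside 5.8% of all tested genes, 1 ligand had an unadjusted p under 0.05. This was fgf3, with 159, 127 and 91.0 normalized counts in wild-type replicates 1 to 3 and 188, 257 and 264 in mutant replicates 1 to 3. The groups did not overlap, as for 10.6% of all tested genes, and limma gave a log2 fold change of 0.93 (SE 0.259, adjusted p = 0.546). The next ligand with a higher mean, fgf1a, had no more than 20.5 normalized counts in any library. The lowest p-values among ligands with a lower mean were those of fgf16 (log2 fold change -0.08) and fgf2 (-0.06).

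Of the FGF receptors and adaptor proteins, 10 of 16 symbols were matched and tested, and none passed the adjusted threshold. The symbols fgfr1a and frs2a were not matched. An unadjusted p under 0.05 in limma was found for 1 of the 10, fgfr3, beside 5.8% of all tested genes. fgfr3 averaged 2678 ± 462 normalized counts in wild-type libraries and 3671 ± 543 in mutant libraries (SD, n = 3 each), without overlap (log2 fold change 0.46, SE 0.163, limma adjusted p = 0.731). fgfr2, named after its values were seen, was read at 9585 to 11333 normalized counts and had a log2 fold change of 0.02. ptpn11b, which encodes a SHP2 phosphatase that promotes RAS activation, had 586 ± 54.5 in wild type and 493 ± 40.6 in mutants (SD, n = 3 each; limma adjusted p = 0.941), and its groups did not overlap. Values without overlap were found for 10.6% of all tested genes. sos1 and sos2, whose products load RAS with GTP, had log2 fold changes of 0.20 and -0.12.

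The SHOC2 complex and the RAS-RAF-MEK-ERK kinases were represented by 16 of 30 symbols. The genes mras, raf1a and raf1b were not among them. shoc2 was the only gene of the 16 with an unadjusted p under 0.05, beside 5.8% of all tested genes. The mean was higher in mutants for 8 and lower for 8. The RAS-family gene rit1 had a log2 fold change of -0.25, the MEK gene map2k1 0.22 and the PP1 catalytic subunit gene ppp1caa 0.07. The median of the list was -0.0072.

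Among other ETS-family genes, 15 of 22 symbols were matched and tested. In limma 0 had an unadjusted p under 0.05, beside 5.8% of all tested genes. The mean was higher in mutants for 8 and lower for 7, with a median log2 fold change of 0.06. The lowest p-values were those of etv7, at 22.4 ± 10.4 normalized counts in wild type and 9.06 ± 1.07 in mutants (SD, n = 3 each; limma adjusted p = 0.874), and of ets1, at 277 ± 26.1 and 203 ± 57.7 (SD, n = 3 each; limma adjusted p = 0.905). Both had values without overlap, lower in mutants, as did 5.28% of all tested genes. On the higher side fli1 had a log2 fold change of 0.14 and etv1, the remaining gene of the PEA3 group, 0.20. etv1 was read at 213 to 382 normalized counts and its groups overlapped, as did those of the other members of its group.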

How the data were processed

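Per the submitters' processing notes, FastQC 0.11.7, STAR 2.6, Cuffnorm and the build GRCz11 were used, with no role stated; strand setting and annotation are not given in the sources used here. The deposited table, labelled htseq, holds a signal made by the authors, normalized read counts per gene. All values were whole multiples of 1 step per library (100% to within 0.01 reads), and reads were taken as value divided by step. Count models were not applied. The reference gene table paired 25324 of 27726 identifiers with symbols.

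Genes with at least 10 normalized counts in at least 3 libraries were compared on log2(normalized count + 1) with limma 3.58.1 (mean-variance trend, R 4.3.3) and Benjamini-Hochberg adjustment over 20463 genes; fold changes are on that scale, which understates those of low genes. The fit was tested on simulated data with changes larger than those of the members, so that test does not cover differences of their size. Ratios were compared by exact permutation (scipy 1.17.1). The genes named are the 4 members and, per list, the 2 smallest p-values in each direction; others are marked. Symbols that matched no identifier, or more than 1, were left out. Most of those left out matched none. Members and lists were chosen with earlier results of these data known. Alternatives were the pseudocount, filter, scaling, variance trend, replicate block, each library left out and, added later, sox10 as a covariate.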

Additional observations from a re-analysis of the deposited data

How the results depend on the processing

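No member passed the adjusted threshold under any of the 15 alternatives run for each. etv4 stayed between -0.49 and -0.14, etv5a between 0.03 and 0.27 and etv5b between -0.16 and -0.03 on the log2 scale. dusp6 changed sign with TMM scaling (-0.0075) and with sox10 as a covariate (-0.11), and ranged from -0.11 to 0.13 with each library left out in turn. With a library left out, the difference between genotypes (mutant minus wild type) in the log2 ratio of dusp6 to etv5b ranged from -0.079 to 0.25. That in the log2 ratio of etv4 to etv5b ranged from -0.39 to 0.011, so each difference took both signs. Of the 4 members, 0 to 2 were without overlap; the 2, etv4 and etv5a, appeared without wild-type replicate 3, where 18.5% of tested genes were without overlap. Over all genes, 1 passed the threshold, 3 without the filter, 0 without the variance trend (1227 unadjusted), 0 with sox10 as a covariate (1619 unadjusted), and, leaving out each library, from 0 to 4 (4 without wild-type replicate 2, 0 without any other). The cause was not tested. With the replicate number as a block, 0 genes passed (906 unadjusted) and the log2 fold changes of the members kept their values. Deviations of same-numbered libraries correlated at -0.20, -0.03 and -0.09, so the numbers were not taken as pairs. edgeR and DESeq2 were not run. For the 4 members, differences between 3 libraries per genotype, more than read depth, limit what could be detected.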
